A study of Mus musculus with 18 samples.

Results

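Genes of iron and heme handling were followed across white and brown adipose samples of mice on an obesogenic diet: Tfrc, Slc11a1, Slc11a2, Slc40a1, Cp, Fth1, Ftl1, Hmox1, Hp and Hpx. They were chosen by name for their roles in iron and heme handling, with earlier results of these data known. They are 10 of the 52093 symbols in the series, with 1 row per symbol. RNA-seq had been run on 18 samples of male wild type C57BL/6 mice fed a high-fat diet (HFD), which lasted 12 weeks, and aged 16 weeks at sampling. The samples were 6 of adipocytes isolated from inguinal white adipose tissue (iWAT), 6 of adipocytes isolated from epididymal white adipose tissue (eWAT) and 6 of whole brown adipose tissue (BAT). The white fat cells were the floating layer left by a collagenase digest, whereas BAT was frozen whole. By the labels, white samples were sequenced on lanes 1 and 2 and BAT on lanes 3 and 4, so tissue, preparation and lane cannot be told apart in any contrast with BAT. The strain field gives C57BL/6, but the extraction text gives C57BL/6J and the study's supplement C57BL/6NTac, so the substrain is unsure. The study's methods start the HFD at 6 weeks of age, which does not match 12 weeks of HFD at 16 weeks. The age is thus unsure too. One label field gives regular chow for all 18 samples, but the titles and the stated design give the HFD. There was no group on chow, no transgene and no drug, so the contrasts below are between tissues only. By the numbers in the sample titles, taken here as mouse numbers, both white depots came from mice 1, 2, 3, 4, 5 and 16, and BAT from mice 1, 2, 5, 16, 17 and 18.

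Cells take up iron that is bound to transferrin through the transferrin receptor (Tfrc), and the divalent metal transporters Slc11a2 (DMT1) and Slc11a1 (NRAMP1) move it out of endosomes and phagosomes. Iron that is not used is stored in ferritin, a shell of heavy (Fth1) and light (Ftl1) chains, and leaves the cell through ferroportin (Slc40a1), helped by ferroxidases such as ceruloplasmin (Cp). Heme oxygenase 1 (Hmox1) opens the heme ring and frees its iron, while haptoglobin (Hp) and hemopexin (Hpx) are secreted proteins that bind free hemoglobin and free heme. Macrophages that clear red cells and debris are known for high levels of Slc11a1, Hmox1 and ferritin, whereas brown adipocytes need heme and iron-sulfur clusters for their many mitochondria.

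Several of these mRNAs carry iron-responsive elements, hairpins to which the iron regulatory proteins bind when iron is low. In ferritin mRNAs the element lies before the coding region and its binding blocks translation. In Tfrc mRNA the elements lie after the coding region and their binding protects the mRNA from decay, so the level of Tfrc mRNA, but not that of ferritin mRNA, is the quantity that this system is known to set. A search of the longest GENCODE vM1 transcript of Fth1, Ftl1 and Tfrc for the loop CAGTGN, N not being G, with an unpaired C and a stem of 5 pairs found 6 sites. Slc40a1 and a form of Slc11a2 are also known to carry such elements and were not searched. The sites are shown because they separate the members whose mRNA is known to follow iron from those whose translation does. The site lies in the 5′ UTR of Fth1 and Ftl1, and 4 of the sites found lie in the 3′ UTR of Tfrc. Elements that depart from the searched loop or stem would be missed, and the letters A to D only follow position. Each site has 30 bases, is written 5′ to 3′ as DNA with its mm9 position, and has the loop in capitals.
Fth1, chr19:10057222-10057251, plus strand: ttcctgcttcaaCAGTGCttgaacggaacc
Ftl1, chr7:52715148-52715177, minus strand: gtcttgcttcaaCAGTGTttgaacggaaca
Tfrc site A, chr16:32631305-32631334, plus strand: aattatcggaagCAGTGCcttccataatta
Tfrc site B, chr16:32631684-32631713, plus strand: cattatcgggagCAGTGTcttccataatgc
Tfrc site C, chr16:32631749-32631778, plus strand: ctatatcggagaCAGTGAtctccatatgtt
Tfrc site D, chr16:32631796-32631825, plus strand: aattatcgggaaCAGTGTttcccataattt
The search fixed every loop letter but the last, so the loops found could differ only there. That letter was C in Fth1 and Tfrc site A, T in Ftl1 and Tfrc sites B and D, and A in Tfrc site C.

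Each sample had 24655056 to 42518483 reads on the rows of its file, and all 10 members passed the minimum of a mean of 10 reads over the 12 samples of each comparison. Levels are given as RPKM, reads scaled to row length and library size, as deposited, as mean ± SD with n = 6 per tissue. Differences are log2 fold changes ± SE from edgeR on read counts, with p-values adjusted over all genes tested. A gene is said to be higher or lower where the adjusted p was below 0.05. Markers were checked against the labels: the summed RPKM of 5 brown adipocyte markers was 2258 to 3073 in BAT, against 12.2 to 17.9 in iWAT adipocytes and 3.44 to 5.95 in eWAT adipocytes. That of 9 macrophage markers, Cd68, Emr1, Csf1r, Itgam, Lyz2, Mrc1, Cd163, Itgax and Trem2, was 25.6 to 51.6 in BAT, 468.9 to 908.7 in adipocytes of iWAT and 2614 to 4236 in those of eWAT, and none of the 9 was at 0 throughout a tissue. The isolated white fat cells thus held macrophage RNA, more in eWAT than in iWAT, and in bulk samples fewer cells of a type and less RNA per cell cannot be told apart. Without TMM scaling, which sets the typical gene to no change, the median log2 difference of all genes in edgeR was 0.87 for iWAT adipocytes over BAT, 0.89 for eWAT adipocytes over BAT and -0.079 between the white depots. Differences from BAT are therefore relative to that typical gene, and a negative difference smaller than this shift can turn positive without TMM. The shift is that of read counts. The deposited RPKM rest on other library totals, and with limma on log2(RPKM + 0.1) the medians were 0.54, 0.48 and -0.018 in the same order.

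Between the white depots, 7 of the 10 members were higher in eWAT adipocytes, 1 (Cp) was higher in iWAT adipocytes and 2 (Hp and Hpx) did not pass the test. Of all 19623 genes tested, 68.6% passed, 34.1% being higher in iWAT and 34.5% in eWAT. The median log2 difference of the members was -1.10, whereas that of all genes was 0.0014. Values of the 2 depots did not overlap for 5 members (Slc11a1, Slc11a2, Fth1, Ftl1 and Hmox1), against 44.0% of all genes. Compared with BAT, iWAT adipocytes were higher for 6 members (Slc11a1, Cp, Ftl1, Hmox1, Hp and Hpx) and lower for 3 (Tfrc, whose sign turned without TMM, Slc11a2 and Slc40a1). The background was 75.3% of 19745 genes, 38.1% higher in iWAT and 37.2% higher in BAT, and the median of the members was 1.33 against 0.014 for all genes. Without TMM, 7 members were higher and 1 lower. Compared with BAT, eWAT adipocytes were higher for 7 members (Slc11a1, Cp, Fth1, Ftl1, Hmox1, Hp and Hpx) and lower for 1 (Tfrc, whose sign turned without TMM), with a median of 1.07. The background was 82.5% of 20076 genes, 41.1% higher in eWAT and 41.4% higher in BAT, with a median of -0.017, and without TMM 9 members were higher and none was lower. RPKM values did not overlap with those of BAT for 8 members in iWAT and 7 in eWAT, against 65.3% and 68.4% of all genes. With backgrounds this high, passing the test does not set a member apart, and the values of each gene are given below. Because the members were chosen with earlier results known, their medians beside those of all genes are a description and not a test.

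**Figure D1:**
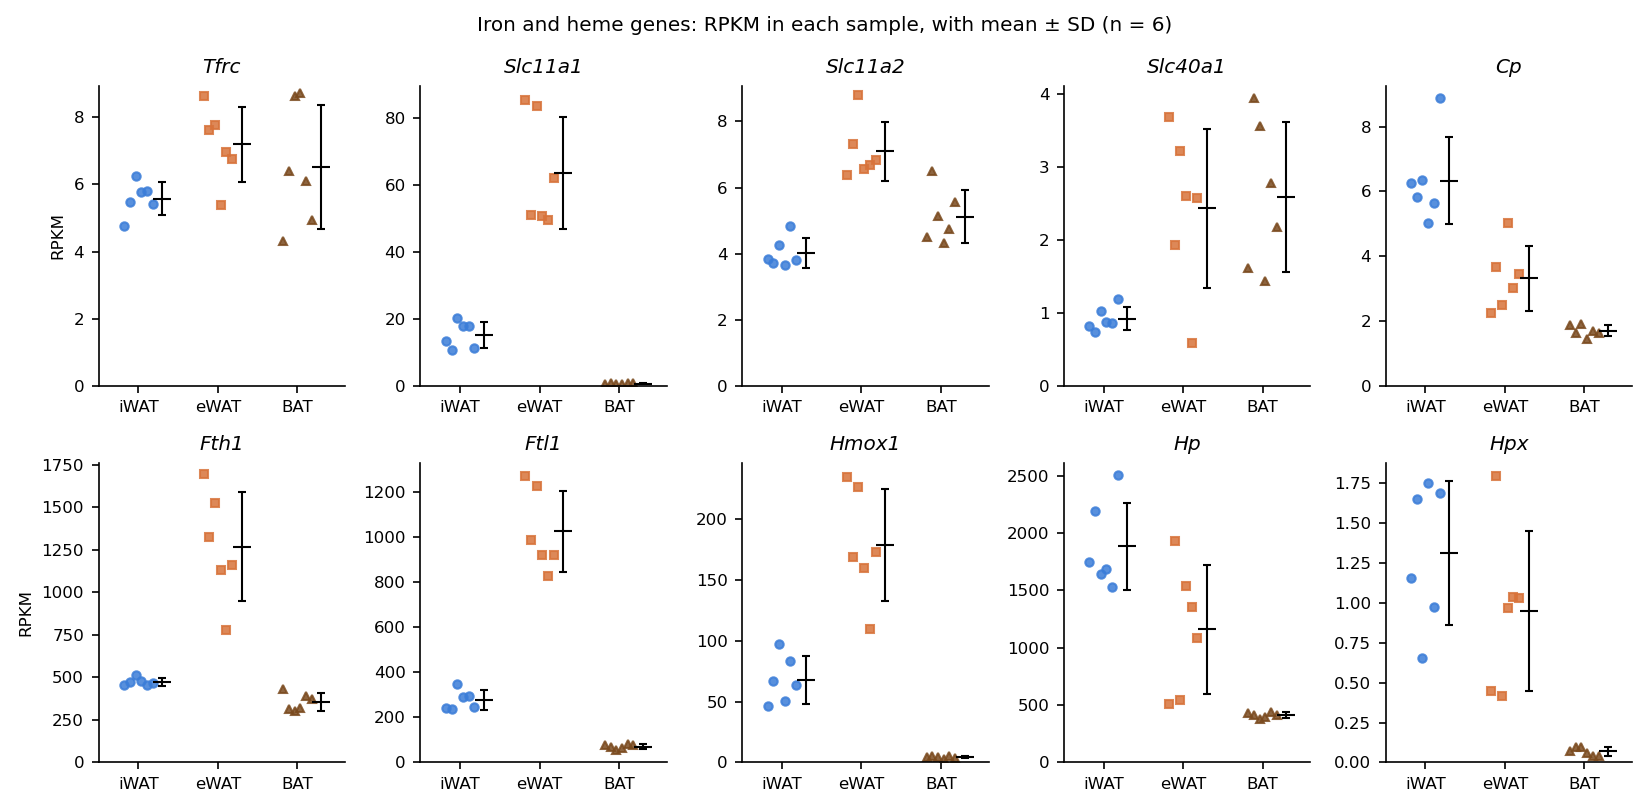
RPKM (linear axes from 0, a scale of its own for each gene) of the 10 members in every sample of iWAT adipocytes (circles), eWAT adipocytes (squares) and BAT (triangles), with the mean ± SD of 6 samples in black. Slc11a1, Ftl1 and Hmox1 fall into 3 separate ranges with eWAT highest and BAT lowest, whereas the 3 tissues share much of the range of Tfrc.

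By RPKM, the most abundant members were Hp and the 2 ferritin chains in all tissues. In iWAT adipocytes Hp led with 1885 ± 380.1, followed by Fth1 with 474.5 ± 22.4 and Ftl1 with 276.5 ± 43.1. In eWAT adipocytes the same genes had 1161 ± 563.1, 1269 ± 323.0 and 1026 ± 180.9, so that their order could not be told from the spread. In BAT the RPKM was 412.7 ± 25.01 for Hp, 355.0 ± 52.2 for Fth1 and 70.2 ± 10.4 for Ftl1. Slc40a1 and Hpx were the least abundant members in both white depots, and Hpx and Slc11a1 in BAT. The rank of Fth1 depends on length: its row (chr19:10055090-10059582, plus strand) counts 2689 bases, 3.11 times the 866 bases of the longest GENCODE transcript, which starts at 10057193. With that transcript length, chosen after the rows were seen, mean RPKM of Fth1 was 1102 in BAT, 1473 in adipocytes of iWAT and 3941 in those of eWAT. This does not touch differences between tissues.

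**Figure D2:**
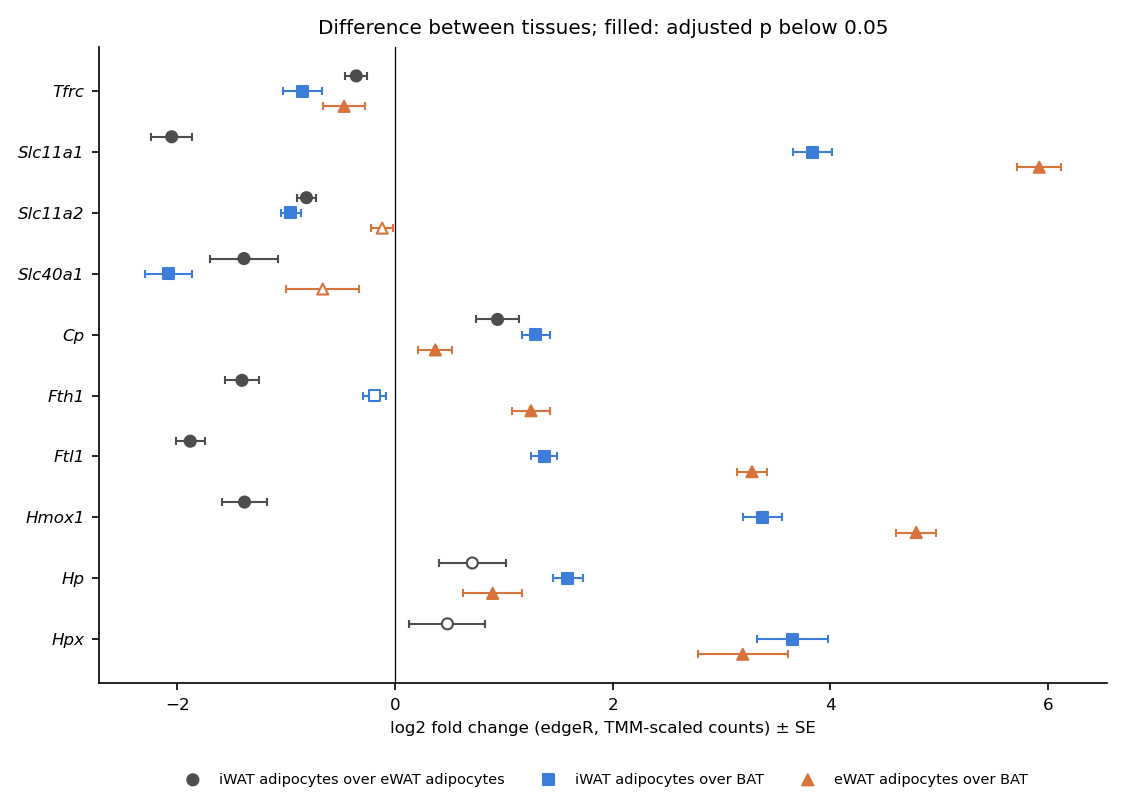
Log2 fold change ± SE (edgeR on TMM-scaled counts) of each member for iWAT over eWAT adipocytes (circles), iWAT adipocytes over BAT (squares) and eWAT adipocytes over BAT (triangles). Filled symbols passed an adjusted p of 0.05, and the largest differences from BAT include those of Slc11a1 and Hmox1. Without TMM the signs against BAT turn for Tfrc in both white depots, Fth1 in iWAT and Slc11a2 and Slc40a1 in eWAT.

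Tfrc, the receptor that brings transferrin-bound iron into the cell (chr16:32608982-32632880, plus strand), had similar levels in the 3 tissues. In iWAT adipocytes its RPKM ran from 4.76 to 6.25 with a median of 5.61. The range was 5.38 to 8.64 with a median of 7.30 in eWAT adipocytes. In BAT it was 4.30 to 8.71 with a median of 6.24, a wider spread in which mice 5 and 16, at 8.63 and 8.71, stood above the other 4. All 3 ranges overlapped. Tfrc was lower in iWAT than in eWAT adipocytes by a log2 difference of -0.36 ± 0.10 (edgeR, adjusted p = 0.0064), a 1.28-fold difference that was -0.36 with an adjusted p of 0.069 when all 18 samples shared one fit. Relative to the typical gene, Tfrc was lower than in BAT in iWAT adipocytes (-0.85 ± 0.18, edgeR adjusted p = 5.7e-04) and in eWAT adipocytes (-0.47 ± 0.20, edgeR adjusted p = 0.037), but without TMM both signs turned, to 0.036 and 0.48. With limma the iWAT difference was -0.18 (adjusted p = 0.31). The call against BAT in eWAT was also lost with the mouse number as a block (-0.47, adjusted p = 0.089; mice 3 and 4 of eWAT and 17 and 18 of BAT then drop out). It was lost too without any one of eWAT mice 2, 4, 5 or 16 or BAT mice 5 or 16, at -0.48 to -0.32.

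The metal transporters parted. Slc11a1, which pumps iron and manganese out of the phagosome and is known as a macrophage gene (chr1:74421777-74432636, plus strand), was high in eWAT adipocytes, where its RPKM ran from 49.4 to 85.2 with a median of 56.5. It ran from 10.8 to 20.3 in iWAT adipocytes with a median of 15.6. In BAT it ran from 0.52 to 0.87 with a median of 0.69, which still rested on 50 to 125 reads per sample. No 2 of these ranges overlapped, and Slc11a1 was 4.15-fold lower in iWAT than in eWAT adipocytes (log2 -2.05 ± 0.19, edgeR adjusted p = 1.3e-06). Relative to BAT it was 14.3-fold higher in iWAT adipocytes (3.84 ± 0.18, edgeR adjusted p = 3.2e-11) and 60.6-fold higher in eWAT adipocytes (5.92 ± 0.20, edgeR adjusted p = 9.0e-13), the largest change of any member. The macrophage markers moved with it: their median log2 difference was -2.20 between iWAT and eWAT, with 9 of 9 lower in iWAT, 4.30 for iWAT over BAT, with 8 of 9 higher in iWAT, and 6.78 for eWAT over BAT, with 9 of 9 higher in eWAT. Within the depots the samples with the most macrophage marker RNA, mice 1 and 3 in eWAT (4236 and 4164) and mouse 3 in iWAT (908.7), also had the highest Slc11a1, at 85.2, 83.6 and 20.3 RPKM. The part of macrophage RNA in the levels of Slc11a1 was not tested.

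Slc11a2, the transporter that releases endosomal iron in most cells (chr15:100218329-100255503, minus strand), varied far less. Its RPKM ran from 3.65 to 4.84 with a median of 3.82 in iWAT adipocytes. It ran from 6.37 to 8.81 with a median of 6.76 in eWAT adipocytes, and from 4.31 to 6.50 with a median of 4.93 in BAT. The white depots did not overlap, and Slc11a2 was 1.76-fold lower in iWAT than in eWAT (log2 -0.81 ± 0.085, edgeR adjusted p = 3.3e-06). Relative to the typical gene it was lower in iWAT adipocytes than in BAT (-0.96 ± 0.091, edgeR adjusted p = 1.2e-07), but only by -0.10 (adjusted p = 0.43) without TMM. In eWAT adipocytes its difference from BAT was -0.12 ± 0.099 (edgeR adjusted p = 0.28), whereas without TMM it was higher there by 0.79 (adjusted p = 1.1e-05). A ratio of 2 genes within a sample is free of this scaling. The ratio of Slc11a1 to Slc11a2 was 0.136 ± 0.026 in BAT, 3.79 ± 0.86 in adipocytes of iWAT and 8.999 ± 2.36 in those of eWAT. It differed in all 3 comparisons without overlap (exact permutation test, two-sided, p = 0.0022, the smallest that 6 against 6 can give; 0.0032 after adjustment over the 9 ratio tests), by 65.3-fold between eWAT adipocytes and BAT.

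Slc40a1, ferroportin, the exporter of cellular iron (chr1:45964915-45983368, minus strand), was a low-level mRNA by the deposited RPKM. Its RPKM was 0.74 to 1.19 in iWAT adipocytes with a median of 0.87, and the 6 samples lay close together. In eWAT adipocytes it was 0.58 to 3.69 with a median of 2.59, the low value being that of mouse 5, below all iWAT samples, while the other 5 samples started at 1.93. In BAT it was 1.44 to 3.94 with a median of 2.48, above every iWAT sample. Slc40a1 was lower in iWAT than in eWAT adipocytes (log2 -1.39 ± 0.32, edgeR adjusted p = 0.0016) and than in BAT (-2.08 ± 0.22, edgeR adjusted p = 3.3e-07). Between eWAT adipocytes and BAT the difference was -0.66 ± 0.33 (edgeR adjusted p = 0.078). This contrast passed without eWAT mouse 1 (-0.82, adjusted p = 0.037), without BAT mouse 1 (-0.79, adjusted p = 0.046) or in one fit of all 18 samples (-0.70, adjusted p = 0.037), and its sign turned without TMM (0.23, adjusted p = 0.52). Within eWAT, Slc40a1 was highest in mice 1 and 3 and lowest in mouse 5, as was the macrophage marker sum. Within BAT both were highest in mouse 2 and lowest in mouse 16. Within iWAT both were lowest in mouse 2, but Slc40a1 was highest in mouse 16 and the sum in mouse 3. Between tissues the order differed, as BAT had the lowest sums but more Slc40a1 than iWAT. The part of macrophage RNA in Slc40a1 was not tested.

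The ratio of Slc40a1 to Tfrc sets the mRNA of iron export against that of iron uptake. It was 0.411 ± 0.146 in BAT, 0.340 ± 0.147 in adipocytes of eWAT and 0.166 ± 0.029 in those of iWAT. It was 2.35-fold lower in iWAT adipocytes than in BAT (log2 -1.23, exact permutation p = 0.0065, adjusted 0.0083), although 1 BAT sample at 0.166 lay within the iWAT range of 0.136 to 0.219. The difference between the white depots, -0.86, did not pass (exact permutation p = 0.061, adjusted 0.068), and without eWAT mouse 5, whose ratio was 0.084, it was -1.23 and passed (adjusted p = 0.0032). Between eWAT adipocytes and BAT the log2 ratio differed by -0.37 (exact permutation p = 0.51, adjusted 0.51), less than the spread between samples.

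**Figure D3:**
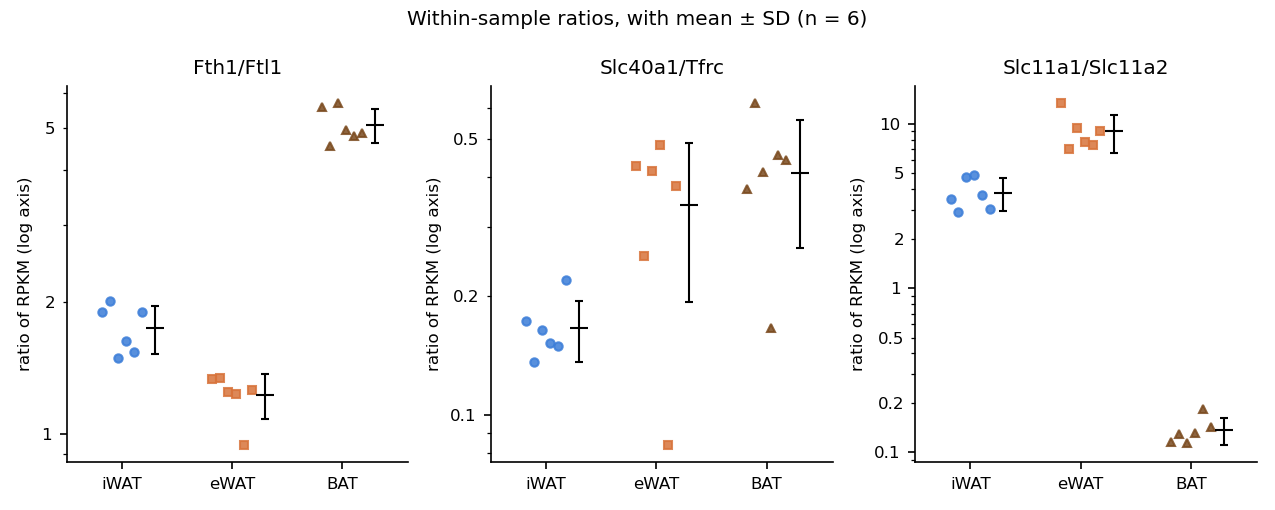
Ratios of RPKM within each sample (log axes) for Fth1 to Ftl1, Slc40a1 to Tfrc and Slc11a1 to Slc11a2, with the mean ± SD of 6 samples per tissue. The ratio of Fth1 to Ftl1 is above 4.55 in every BAT sample and at or below 2.01 in every white adipocyte sample, and eWAT mouse 5 is the lowest point of the middle panel.

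Cp, the ferroxidase ceruloplasmin, which loads exported iron onto transferrin (chr3:19857054-19909145, plus strand), was the 1 member higher in iWAT than in eWAT adipocytes. Its RPKM ran from 5.02 to 8.88 with a median of 6.04 in iWAT adipocytes. It ran from 2.26 to 5.03 with a median of 3.22 in eWAT adipocytes, and from 1.46 to 1.92 with a median of 1.66 in BAT. The white depots overlapped only by the highest eWAT sample, mouse 4, and the lowest iWAT sample, also mouse 4, which lay at 5.03 and 5.02. Cp was 1.92-fold higher in iWAT than in eWAT adipocytes (log2 0.94 ± 0.19, edgeR adjusted p = 7.8e-04) and 2.45-fold higher than in BAT (1.29 ± 0.13, edgeR adjusted p = 2.0e-07). In eWAT adipocytes it was 0.37 ± 0.16 above BAT (edgeR adjusted p = 0.041). That call was lost with the mouse number as a block (0.22, adjusted p = 0.23; mice 3, 4, 17 and 18 drop out), in one fit of all 18 samples (0.35, adjusted p = 0.067) and without any one of eWAT mice 2, 4 or 16 or BAT mice 1, 2, 16, 17 or 18 (0.22 to 0.38). The Cp row overlaps that of Hps3 on the opposite strand, where reads amounted to 30.5%, 75.3% and 56.5% of those of Cp in iWAT, eWAT and BAT. In GENCODE the 2 genes share 108 of the 9566 exon bases of Cp, and because the library kit does not mark strand, reads there cannot be assigned to one of them. Within eWAT, Cp was lowest in mice 1 and 3 (2.26 and 2.49). These samples also had the lowest summed RPKM of 5 adipocyte markers in eWAT (720.5 and 526.7). The part of adipocyte RNA in Cp was not tested.

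For both ferritin chains the 3 tissues held separate ranges of RPKM. Fth1, the chain that oxidises iron as it enters the shell, ran from 777.6 to 1694 RPKM in eWAT adipocytes with a median of 1242. It ran from 453.4 to 516.3 in iWAT adipocytes with a median of 471.5, and from 303.4 to 433.0 in BAT with a median of 346.6. Every eWAT sample was thus above every iWAT sample. Fth1 was 2.65-fold lower in iWAT than in eWAT adipocytes (log2 -1.41 ± 0.16, edgeR adjusted p = 6.5e-06) and 2.38-fold higher in eWAT adipocytes than in BAT (1.25 ± 0.17, edgeR adjusted p = 6.3e-06). Between iWAT adipocytes and BAT the TMM-scaled difference was -0.19 ± 0.10 (edgeR adjusted p = 0.11; -0.25 with an adjusted p of 0.037 without BAT mouse 2), but it was 0.67 (adjusted p = 3.4e-05) without TMM, so no direction can be given.

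Ftl1, the light chain that promotes the build-up of the iron core (chr7:52713314-52715256, minus strand), differed more. Its RPKM ran from 826.5 to 1271 with a median of 955.2 in eWAT adipocytes. It ran from 235.9 to 346.7 with a median of 269.9 in iWAT adipocytes and from 53.2 to 81.0 with a median of 72.7 in BAT, again without overlap. It was 3.69-fold lower in iWAT than in eWAT adipocytes (log2 -1.88 ± 0.13, edgeR adjusted p = 2.5e-07). Relative to BAT it was 2.59-fold higher in iWAT adipocytes (1.37 ± 0.12, edgeR adjusted p = 3.1e-08) and 9.72-fold higher in eWAT adipocytes (3.28 ± 0.14, edgeR adjusted p = 9.7e-12). The balance of the 2 chains thus differed between tissues. The ratio of Fth1 to Ftl1 was 5.08 ± 0.46 in BAT, with a range of 4.56 to 5.70. It was 1.74 ± 0.22 in iWAT adipocytes, with a range of 1.49 to 2.01, and 1.22 ± 0.15 in eWAT adipocytes, with a range of 0.94 to 1.34. All 3 pairs differed without overlap (exact permutation test, two-sided, p = 0.0022, adjusted 0.0032), by 4.16-fold between BAT and eWAT adipocytes, 2.92-fold between BAT and iWAT adipocytes and 1.42-fold between the white depots. The lengths used set the size of the ratio in every tissue alike and not its order.

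Both ferritin rows share their place with another row, so their reads are uncertain. LOC100504670, opposite to Fth1, held 47.2% to 49.7% as many reads as Fth1 on average in each tissue, and Gm10252, opposite to Ftl1, held 29.4% to 32.1% as many as Ftl1. Ftl1 also has 3 rows, and summing them raised its mean RPKM to 128.9 in BAT, 528.9 in adipocytes of iWAT and 1965 in those of eWAT, with all 3 ratio tests still passing. In each white depot Fth1 and Ftl1 were highest in the samples with the most macrophage marker RNA: in eWAT mice 1 and 3 had 1694 and 1526 RPKM of Fth1 and 1271 and 1227 of Ftl1, and in iWAT mouse 3 had 516.3 and 346.7. This order did not hold for Fth1 throughout. In iWAT, mouse 5 had a marker sum of 804.4 but the lowest Fth1 of the depot (453.4), with Ftl1 at 295.5. In BAT, mouse 2 had the highest sum (51.6) but only 311.6 RPKM of Fth1, where mouse 1 had 433.0. The part of macrophage RNA in the ferritin levels was not tested.

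**Figure D4:**
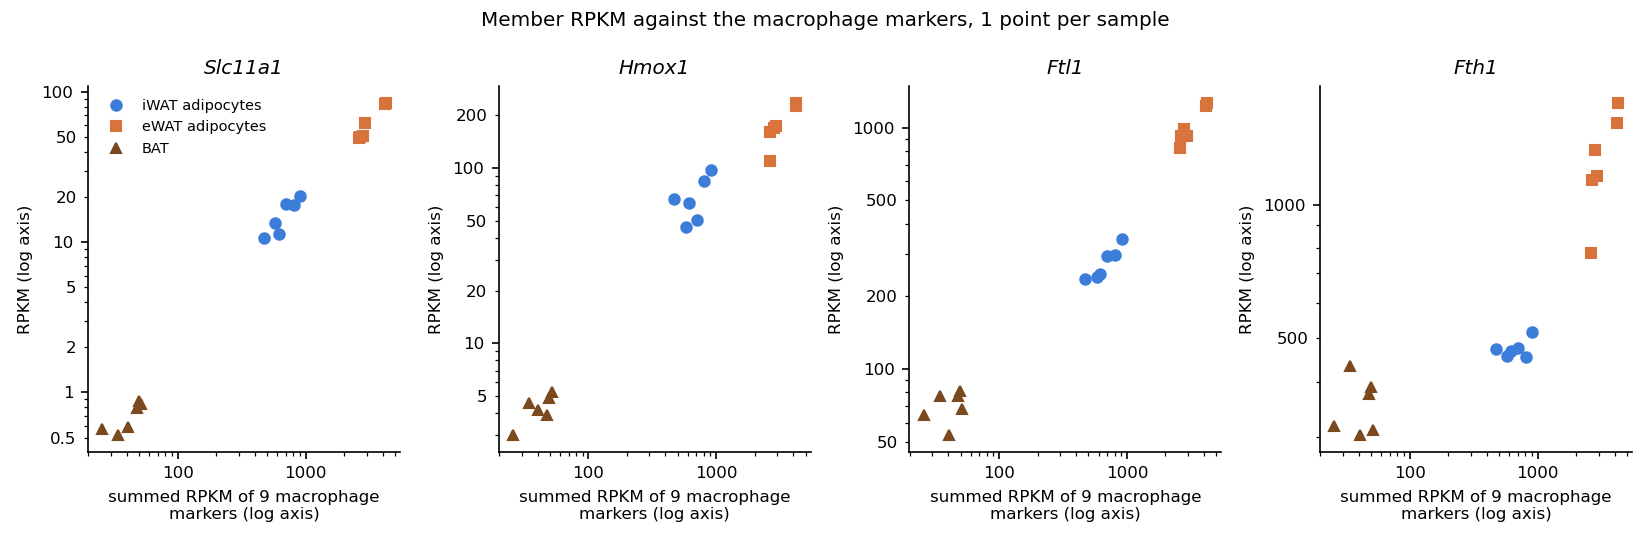
RPKM of Slc11a1, Hmox1, Ftl1 and Fth1 against the summed RPKM of 9 macrophage markers, 1 point per sample, with log axes. Tissues form 3 separate groups along both axes for Slc11a1, Hmox1 and Ftl1, and within eWAT mice 1 and 3 (marker sums 4236 and 4164) lie at the upper end of every panel.

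Hmox1, the inducible enzyme that breaks heme down to biliverdin, carbon monoxide and iron (chr8:77617490-77624495, plus strand), followed the same order. Its RPKM was 109.7 to 235.2 in eWAT adipocytes with a median of 170.9. In iWAT adipocytes it was 46.2 to 97.5 with a median of 65.0, and in BAT 3.01 to 5.30 with a median of 4.37. The ranges did not overlap, the nearest being iWAT mouse 3 at 97.5 and eWAT mouse 5 at 109.7. Hmox1 was 2.61-fold lower in iWAT than in eWAT adipocytes (log2 -1.38 ± 0.21, edgeR adjusted p = 6.7e-05). It was 10.4-fold higher in iWAT adipocytes than in BAT (3.38 ± 0.18, edgeR adjusted p = 1.2e-10) and 27.7-fold higher in eWAT adipocytes (4.79 ± 0.18, edgeR adjusted p = 2.9e-12). The 2 differences from BAT stood beside medians of 4.30 and 6.78 for the markers. Within eWAT it was highest in mice 1 and 3 (235.2 and 226.4) and lowest in mouse 5, as were the markers. Within BAT both were highest in mouse 2 and lowest in mouse 16. In iWAT both were highest in mouse 3, but Hmox1 was lowest in mouse 1 (46.2) and the marker sum in mouse 2 (468.9), where Hmox1 was 66.6. The part of macrophage RNA in Hmox1 was not tested. Red cell RNA moved the other way: the summed RPKM of 6 erythroid markers, hemoglobins included, was 807.7 to 1719 in BAT, 163.8 to 388.5 in adipocytes of eWAT and 177.7 to 868.7 in those of iWAT, and the 4 that could be tested were lower than in BAT in both.

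The secreted scavengers were highest in iWAT adipocytes by their means. Haptoglobin (Hp; chr8:112099028-112103072, minus strand), a hemoglobin-binding protein made by liver and fat, had 1533 to 2508 RPKM in iWAT adipocytes with a median of 1716 and only 374.7 to 443.7 in BAT with a median of 413.9. In eWAT adipocytes it ran from 507.6 to 1933 with a median of 1221 and the samples split: mice 1 and 3 had 507.6 and 545.3, and the other 4 had 1087 or more. The same mice 1 and 3 had the lowest adipocyte marker sums of the eWAT samples (720.5 and 526.7 RPKM over 5 markers, against 1336 to 1862), and the part of adipocyte RNA in these values was not tested. Hp was 3.01-fold higher in iWAT adipocytes than in BAT (log2 1.59 ± 0.14, edgeR adjusted p = 4.3e-08) and 1.86-fold higher in eWAT adipocytes than in BAT (0.90 ± 0.27, edgeR adjusted p = 0.0066). Between the white depots the difference of 0.71 ± 0.31 lay at the threshold (edgeR adjusted p = 0.054). It passed with the mouse number as a block (0.85, adjusted p = 0.023), with DESeq2 (0.73, adjusted p = 0.027), with limma (0.85, adjusted p = 0.031) and in one fit of all 18 samples (0.70, adjusted p = 0.022). It passed also without iWAT mouse 5 (0.78), eWAT mouse 2 (0.91) or eWAT mouse 4 (0.81), and with no filter beyond 1 read (0.74, adjusted p = 0.048).

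Hemopexin (Hpx; chr7:112740125-112748630, minus strand), a heme-binding protein known mainly from the liver, was a trace mRNA. Its RPKM ran from 0.66 to 1.75 with a median of 1.40 in iWAT adipocytes and from 0.41 to 1.79 with a median of 0.999 in eWAT adipocytes. In BAT it had 0.040 to 0.098 RPKM with a median of 0.067, from 3 to 8 reads per sample. It was higher than in BAT in iWAT adipocytes (log2 3.65 ± 0.33, edgeR adjusted p = 6.1e-08) and in eWAT adipocytes (3.20 ± 0.41, edgeR adjusted p = 3.5e-06), and these fold changes rest on those few BAT reads. Between the white depots the ranges overlapped and the difference was 0.48 ± 0.35 (edgeR adjusted p = 0.24; 0.55 with an adjusted p of 0.045 with the mouse number as a block). In eWAT mice 1 and 3 were again lowest, at 0.45 and 0.41. The summed RPKM of 4 hepatocyte markers was 0.61 to 1.30 in BAT, 0.25 to 0.76 in adipocytes of eWAT and 2.33 to 3.88 in those of iWAT, with Ttr at 0 in every sample of eWAT and BAT. Their part in Hpx was not tested.

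The other 57 genes of the pathway were read as 9 lists by role. Of the 49 tested between the white depots, 42 passed, 23 higher in iWAT and 19 higher in eWAT, with a median of 0.22. Against BAT, 37 of 50 passed for iWAT adipocytes, 16 higher in iWAT and 21 higher in BAT with a median of -0.16, and 44 of 50 for eWAT adipocytes, 24 higher in eWAT and 20 higher in BAT with a median of 0.16. The shares over all genes tested in these contrasts were 68.6%, 75.3% and 82.5%, and the counts of each list below stand against them. Without TMM the split was 36 to 7 for iWAT and 33 to 13 for eWAT. Hamp and Hamp2 (hepcidin, the hormone that degrades ferroportin), Ftmt (mitochondrial ferritin), Cybrd1, Lrp2 and Mfsd7c were too low to test in any comparison.

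**Figure D5:**
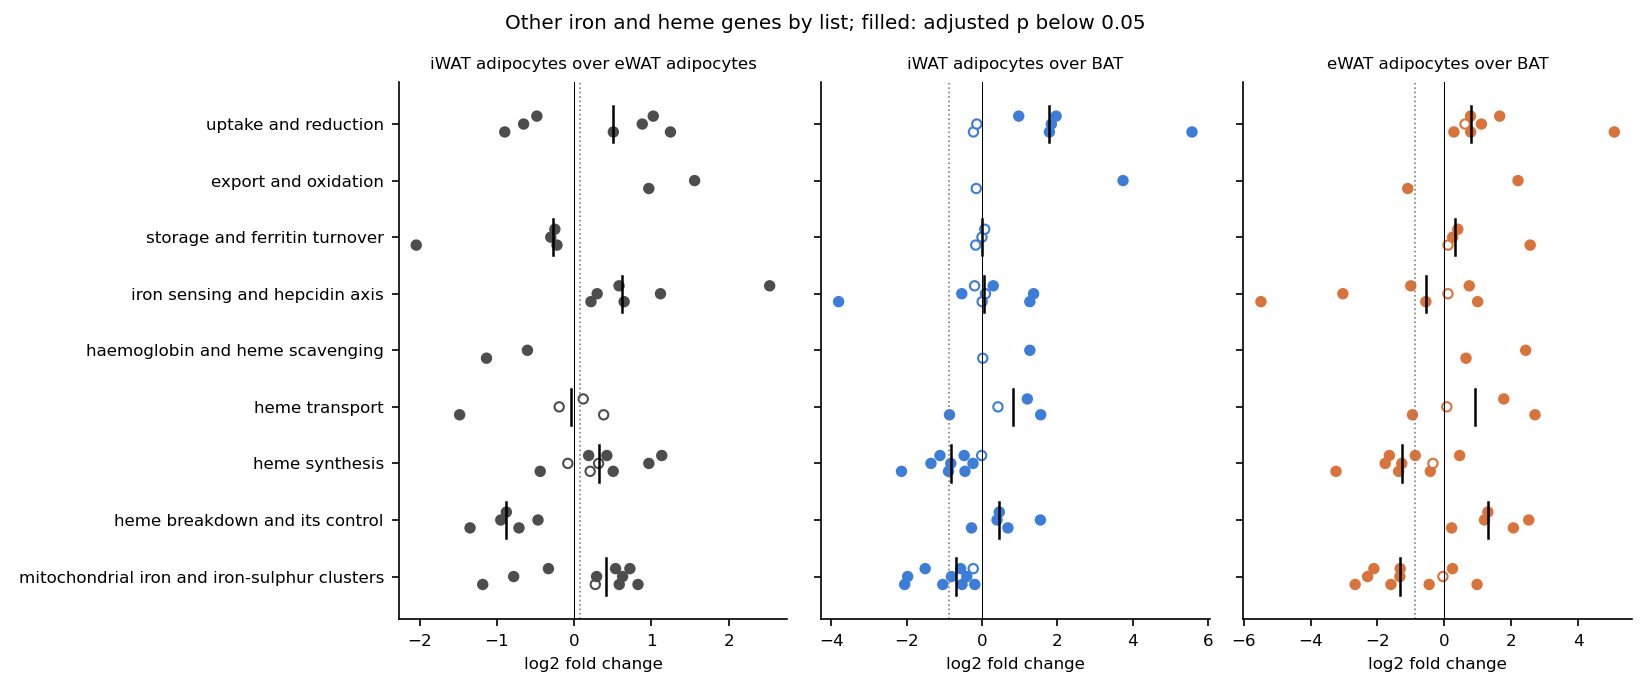
Log2 fold change of each tested pathway gene by list, for the 3 comparisons, with filled points at an adjusted p below 0.05 and a black bar at the median of lists with over 2 tested genes. The dotted line shows where no change would lie in edgeR without TMM scaling. Against BAT most heme synthesis and iron-sulfur genes lie left of the solid line at 0. For iWAT, more of those that passed in edgeR without TMM were lower in BAT than higher, whereas with limma more were higher.

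In uptake and reduction, transferrin stood out between white and brown samples. All 7 tested genes passed between the white depots (4 higher in iWAT, median 0.51), and 5 and 6 of 7 were higher than in BAT in iWAT and eWAT adipocytes, with none lower. Trf, transferrin, the carrier of iron in plasma, had 5.96 ± 1.74 RPKM in BAT, 303.8 ± 67.1 in adipocytes of eWAT and 428.3 ± 88.7 in those of iWAT. It was 47.6-fold higher than in BAT in iWAT adipocytes (log2 5.57 ± 0.22, edgeR adjusted p = 6.2e-12) and 34.0-fold higher in eWAT adipocytes (5.09 ± 0.22, edgeR adjusted p = 8.5e-12), and its row is overlapped by a joint row with Srprb. Within eWAT, Trf was lowest in mice 1 and 3 (215.6 and 250.6), as were the adipocyte marker sums (720.5 and 526.7). The part of adipocyte RNA in Trf was not tested. The ferrireductase Steap4 was 1.02 ± 0.26 higher in iWAT than in eWAT adipocytes and Trfr2, the second transferrin receptor, 1.25 ± 0.34 higher. Steap3, the endosomal ferrireductase, went the other way (-0.65 ± 0.086) and was 1.66 ± 0.12 higher in eWAT adipocytes than in BAT, and Steap2, a trace mRNA at 0.036 and 0.067 RPKM, was also lower in iWAT (-0.90 ± 0.26). The zinc and iron importer Slc39a8 was 1.97 ± 0.23 higher in iWAT adipocytes than in BAT.

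Among the ferroxidases, Heph (hephaestin) was, like Cp, highest in iWAT adipocytes. It had 0.57 ± 0.11 RPKM in BAT, 3.99 ± 1.67 in adipocytes of eWAT and 11.7 ± 1.42 in those of iWAT. Heph was 2.95-fold higher in iWAT than in eWAT adipocytes (log2 1.56 ± 0.25, edgeR adjusted p = 1.3e-04), 13.4-fold higher than in BAT in iWAT (3.74 ± 0.12) and 4.61-fold higher in eWAT (2.20 ± 0.25). Within eWAT, Heph was lowest in mouse 3 (1.90), the sample with the lowest adipocyte marker sum, and highest in mouse 4 (6.40). All 5 adipocyte markers were higher in iWAT than in eWAT (median 1.55), and their part in Heph and Cp was not tested. Hephl1 was 0.97 ± 0.34 higher in iWAT than in eWAT adipocytes and lower in eWAT adipocytes than in BAT (-1.10 ± 0.33), a difference of -0.18 without TMM. In storage, all 4 tested genes were higher in eWAT than in iWAT adipocytes (median -0.28), among them Pcbp2, a chaperone that hands iron to ferritin (-0.30 ± 0.060), and Ftl2, whose row overlaps one of the Ftl1 rows (-2.04 ± 0.47). Against BAT, the 3 tested genes differed by -0.17 to 0.073 in iWAT adipocytes (edgeR adjusted p of 0.17 or more), although all 3 were higher without TMM, and 3 of 4 genes of the list were higher in eWAT adipocytes.

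For iron sensing, all 6 tested genes were higher in iWAT than in eWAT adipocytes, with a median of 0.61, 5 of them also without TMM. Markers of other kinds moved the same way: 5 of 5 adipocyte markers were higher in iWAT (median 1.55; summed RPKM 2721 to 4037 against 526.7 to 1862 in eWAT), as were 4 of 4 endothelial markers (median 1.73; 99.5 to 280.0 against 33.4 to 71.2). None of these markers was at 0 throughout a depot, and their part in the iron sensing genes was not tested. They include the iron regulatory proteins Aco1 (29.4 against 19.8 RPKM, log2 0.58 ± 0.10, edgeR adjusted p = 2.3e-04) and Ireb2 (6.41 against 5.54 RPKM, 0.22 ± 0.057, edgeR adjusted p = 0.0039), which bind the elements shown above, and which were named after their values were seen. The hepcidin inducer Bmp6 had 6.92 RPKM in BAT, 1.27 in adipocytes of eWAT and 7.36 in those of iWAT, and was 5.78-fold higher in iWAT than in eWAT (2.53 ± 0.27, edgeR adjusted p = 4.6e-06), while the change of Neo1 was 1.12 ± 0.18. Relative to BAT, 3 genes were higher and 2 lower in iWAT adipocytes, and 2 higher and 4 lower in eWAT adipocytes, whereas without TMM 5 were higher and 1 lower in iWAT and 4 were higher and 2 lower in eWAT, so the balance depends on the scaling. Hfe (1.37 ± 0.091 and 0.75 ± 0.12) and Fbxl5 (1.27 ± 0.099 and 0.998 ± 0.10) were higher in both white depots, and Bmp6 was lower in eWAT adipocytes (-3.04 ± 0.15). Its smaller difference between iWAT adipocytes and BAT, -0.53 ± 0.20, turned to 0.34 without TMM. Hfe2 (hemojuvelin), a gene of skeletal muscle and liver, was lower in iWAT adipocytes (-3.80 ± 0.72) and eWAT adipocytes (-5.49 ± 0.82) than in BAT, where its RPKM ran from 0.036 in mouse 2 to 1.13 in mouse 5, on 3 to 59 reads, against 0 to 2 reads in eWAT samples. The summed RPKM of 4 skeletal muscle markers was also lowest in BAT mouse 2 (1.47) and highest in BAT mouse 5 (98.6), and its part in Hfe2 was not tested.

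Both tested receptors of heme and hemoglobin complexes were higher in eWAT than in iWAT adipocytes. Lrp1, the receptor for hemopexin bound to heme, had 9.28 RPKM in BAT, 33.8 in adipocytes of iWAT and 74.5 in those of eWAT (log2 -1.13 ± 0.14 between the white depots and 2.43 ± 0.19 for eWAT over BAT). Cd163, the macrophage receptor for haptoglobin bound to hemoglobin and itself one of the 9 macrophage markers, was at 0.93, 1.44 and 2.20 RPKM in BAT, iWAT and eWAT, and was lower in iWAT than in eWAT by -0.60 ± 0.19. Mfsd7b (Flvcr1), a heme exporter, was 2.79-fold lower in iWAT than in eWAT adipocytes (-1.48 ± 0.13) and 6.56-fold higher in eWAT adipocytes than in BAT (2.71 ± 0.12). It was the 1 gene of 4 in its list to pass between the white depots. The lysosomal heme transporter Slc48a1 was higher than in BAT in iWAT (1.56 ± 0.084) and eWAT adipocytes (1.78 ± 0.095), whereas Slc46a1 was lower relative to the typical gene (-0.86 ± 0.12 and -0.95 ± 0.10) and close to 0 without TMM (-0.015 and -0.049).

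Of the list of heme breakdown and its control, which holds a second heme oxygenase, the biliverdin reductases and regulators of Hmox1, all 5 genes were higher in eWAT than in iWAT adipocytes, with a median of -0.88, and all 5 were higher in eWAT adipocytes than in BAT, with a median of 1.30. Blvrb, a biliverdin reductase, had 4.0 RPKM in BAT, 9.81 in adipocytes of iWAT and 25.2 in those of eWAT, and differed by -1.35 ± 0.20 and 2.07 ± 0.21 in these contrasts. Bach1, a repressor of Hmox1 that heme removes from DNA, had 2.96, 13.3 and 25.6 RPKM in the same order, with changes of -0.95 ± 0.18 and 2.53 ± 0.11. Mean levels of repressor and target were both highest in eWAT adipocytes and lowest in BAT at the mRNA level. In iWAT adipocytes over BAT, 4 of the 5 were higher and 1, Hmox2, was lower (-0.28 ± 0.064), but the sign of Hmox2 turned without TMM (0.57). Macrophage markers moved the same way as the list medians, by -2.20 for iWAT over eWAT, 4.30 for iWAT over BAT and 6.78 for eWAT over BAT. Within eWAT, Blvrb was highest in mouse 1 (37.2) and lowest in mouse 5 (12.1), as was the macrophage marker sum. Nfe2l2 was instead highest in mouse 5 (52.3). The part of macrophage RNA in this list was not tested.

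Relative to the typical gene, most genes of heme synthesis and mitochondrial iron were higher in BAT, but those counts depended on the scaling. Of 9 genes of heme synthesis, 8 were higher in BAT than in iWAT adipocytes and none lower, and 7 were higher and 1 lower in BAT than in eWAT adipocytes, with medians of -0.83 and -1.27. In edgeR without TMM these counts were 3 higher and 4 lower in BAT against iWAT adipocytes, and 5 and 3 against eWAT adipocytes. With limma on log2(RPKM + 0.1), also without TMM, they were 4 and 2 against iWAT and 6 and 1 against eWAT. The direction of the list against iWAT thus depends on the scaling. The members named here as higher in BAT were taken for their large changes, which exceed the shift of 0.87 and 0.89 given above. That they kept their sign without TMM thus says nothing about the list. Alas2, the erythroid form of the first enzyme, was at -2.13 ± 0.31 against iWAT and -3.24 ± 0.26 against eWAT (-1.24 and -2.31 without TMM). Uros against iWAT was at -1.35 ± 0.11 (-0.50) and Alad against eWAT at -1.77 ± 0.11 (-0.86). Alas2 RPKM was 2.38 to 4.73 in BAT, where mouse 16 was highest and mouse 5 lowest both for Alas2 and for the summed erythroid markers, whose part in it was not tested. Between the white depots 6 of 9 passed, 5 of them higher in iWAT (Alas2 1.13 ± 0.40, Alad 0.97 ± 0.13) and Cpox lower (-0.44 ± 0.076). Erythroid markers moved with Alas2 here too, 4 of 4 tested being higher in iWAT (median 0.99), with iWAT mouse 5 highest and mouse 16 lowest and eWAT mouse 16 highest in both, and their part was not tested.

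Of the 10 genes of mitochondrial iron and iron-sulfur clusters, 9 were higher in BAT than in iWAT adipocytes and 7 were higher in BAT than in eWAT adipocytes, where 2 were lower, with medians of -0.69 and -1.33. In edgeR without TMM 3 and 6 were higher in BAT and 5 and 4 were lower. With limma on log2(RPKM + 0.1), 4 and 6 were higher in BAT and 2 and 3 were lower. Isca1, an assembly factor, had 10.8 RPKM in BAT, 2.56 in adipocytes of eWAT and 4.19 in those of iWAT (-1.97 ± 0.089 and -2.67 ± 0.11; -1.12 and -1.76 without TMM). Slc25a37 (mitoferrin 1) was higher in eWAT adipocytes than in BAT (0.98 ± 0.086) and lower in iWAT than in eWAT adipocytes (-1.18 ± 0.13), whereas Glrx5 (0.83 ± 0.14) and Isca1 (0.72 ± 0.11) were higher in iWAT.

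The genes whose pattern was most like that of each member were read from Pearson's r on log2(RPKM + 0.1) among 13317 genes, as a description, since the samples share tissue, library and the macrophage content given above. Over the 18 samples Slc11a1 was most like Myo1f, Cd300a and Cd84 (each 0.999 or more), and Hmox1 most like Abcg1 (0.995), Gm12844 (0.994) and Rilpl2 (0.994). Apart from the overlapping rows named above, Ftl1 was most like Atp6v0c and P2rx4 (both 0.998) and Fth1 most like Prdx1 (0.989) and Cbr3 (0.987). Hp was most like Aldh1l1 (0.985), Ltc4s and Lmo4 (both 0.983), Cp like Scn7a (0.985), Gbp2 (0.983) and Matn2 (0.982), and Hpx like Duoxa1 (0.982), Ptprf (0.978) and Col16a1 (0.977). Slc11a2 was nearest to Tmem8 (0.942), Penk and Tmx4 (both 0.926), and Slc40a1 to Lrrc20 (0.919), Cyp4f13 (0.857) and Slc9a8 (0.854). Tfrc had no near neighbour, its highest values being 0.662 for 1700071M16Rik, 0.651 for Malat1 and 0.638 for Pla2g7.

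With the tissue means taken off, so that only the spread within tissues was left, the neighbours changed. Hmox1 was most like Srxn1 (0.932), 4930471M23Rik (0.880) and Txnrd1 (0.831), and Slc40a1 most like Abcc1 (0.888), Tuba4a (0.870) and Gclm (0.866). Fth1 was nearest to Blvrb (0.941) and LOC100503114 (0.910) after its overlapping row, and Ftl1 to Atp6v0c (0.939) and Rac2 (0.923). Slc11a1 stayed near Myo1f (0.976), with Adam8 (0.978) and Ucp2 (0.950), and Hp near Aldh1l1 and Lmo4 (both 0.960), with Jazf1 (0.965). The nearest gene was Angpt1 for Cp (0.891), B430305J03Rik for Slc11a2 (0.889) and 2410042D21Rik for Tfrc (0.796).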

How the data were processed

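RNA of isolated iWAT and eWAT adipocytes and of whole BAT (6 samples each) was sequenced from libraries made with the NEBNext Ultra kit, which does not mark strand. The submitters' processing notes name cutadapt 1.16, HISAT2 2.1.0 and the mm9 build; the counting program is not given in the sources used here. The authors deposited, for each of 53445 rows, a read count and the RPKM they computed from it with the row's length. Where a symbol had several rows, its most abundant row by mean RPKM over all 18 files was taken. Groups are the tissues in the labels. Members and lists were chosen with earlier results of these data known.

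Counts were compared with edgeR 4.0.16 in R 4.3.3 (quasi-likelihood test, TMM, two-sided), each comparison on its own 12 samples. Genes needed a mean count of 10, and Benjamini-Hochberg adjustment covered every gene tested, with a threshold of 0.05. The fit was tested on simulated data in which both groups were drawn from the profile of the same tissue. That setting cannot show how the scaling behaves against BAT. Ratios of RPKM were compared by exact permutation (924 arrangements), adjusted over 9 tests. Alternatives were DESeq2 1.42.0, limma 3.58.1 on log2(RPKM + 0.1) or log2(RPKM + 1) with a mean of at least 0.1 RPKM, no TMM, no filter beyond 1 read, summed rows, 1 fit of all samples, lane or mouse number as a term, a log2 fold of at least 1 and each sample left out. In a fit of all samples the mean TMM factor was 0.658 in BAT, 1.27 for eWAT and 1.21 for iWAT. Deviations of same-numbered samples from their tissue mean correlated on average by 0.0019 between the white depots (6 pairs), -0.013 for iWAT and BAT and 0.0075 for eWAT and BAT (4 pairs each). The 6 white pairs ran from -0.28 to 0.50. Pairing by number was thus not seen, but so few and so varied pairs cannot settle whether the samples were paired. No source used here says that the title numbers are mice, and p-values measure only the spread between these samples, which may be technical. Reads are not independent molecules, so read counts give counting error only. Besides the members, up to 2 called genes with the largest change in each direction were named per list and comparison, unless stated otherwise, and up to 3 genes most like each member in pattern. Iron-responsive elements were read from GENCODE vM1 transcripts of the same build, with Python 3.11.15, and figures drawn with matplotlib 3.10.9. Values of some genes that this rule names are not reported here.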

Additional observations from a re-analysis of the deposited data

Results flagged for a closer look

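In 3 of 39 sets of 6 samples (10 members and 3 ratios in 3 tissues) 1 sample lay far from the other 5 by Dixon's criterion, and chance alone flags about 1 in 20 such sets, or 1.95 of 39. Cp in iWAT adipocytes was 8.88 RPKM in mouse 16, against 5.02 to 6.36 in the other 5. Fth1 in iWAT adipocytes was 516.3 RPKM in mouse 3, against 453.4 to 476.6, in the sample that also had the most macrophage marker RNA of its depot (908.7 RPKM). The ratio of Fth1 to Ftl1 in eWAT adipocytes was 0.941 in mouse 5, against 1.23 to 1.34, and the same sample had the lowest Fth1, Ftl1, Hmox1, Slc11a1 and Slc40a1 and the lowest macrophage marker sum (2614 RPKM) of the eWAT samples.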

How the results depend on the processing

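The counts of the 10 members and the 57 other pathway genes that passed stayed within 1.5 times in all 3 comparisons with DESeq2, limma at either pseudocount, no TMM, no filter beyond 1 read, summed rows, one fit of all samples and the replicate block, and between the white depots with lane as a covariate. A further demand for an absolute log2 fold change of at least 1, which by construction removes calls, left 5 members for iWAT over eWAT and 5 for eWAT over BAT, and 11, 19 and 27 pathway genes for iWAT over eWAT, iWAT over BAT and eWAT over BAT.

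Signs turned only against BAT, and only with no TMM or with limma, whose scale also has no TMM. For iWAT over BAT without TMM, Tfrc was 0.036 and Fth1 0.67, and with limma Fth1 was 0.43 at both pseudocounts. For eWAT over BAT without TMM, Tfrc was 0.48, Slc11a2 0.79 and Slc40a1 0.23. With limma at pseudocounts of 0.1 and 1, Tfrc was 0.17 and 0.15 and Slc11a2 0.47 and 0.41.

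With each sample left out in turn, 8 to 9, 9 to 10 and 6 to 9 members passed for iWAT over eWAT, iWAT over BAT and eWAT over BAT. The log2 ratio of Slc40a1 to Tfrc between the white depots ran from -1.23 to -0.72 and passed only without eWAT mouse 5; the other 8 ratio tests kept their side of the threshold. Of 360 fold changes with a sample left out, 6 gained and 14 lost the call and none changed sign; all 20 concern Hp between the white depots, Fth1 for iWAT over BAT, and Tfrc, Slc40a1 and Cp for eWAT over BAT. In the replicate block by mouse number, Hp (0.85) and Hpx (0.55) were gained between the white depots, Tfrc (-0.47) and Cp (0.22) were lost for eWAT over BAT, and no other member's call changed. Same-numbered samples of the white depots deviated together by -0.28 to 0.50 (6 pairs), so pairing by mouse is not shown by the data. Depth limits Hpx in BAT, which rests on 3 to 8 reads a sample.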
